A study of Homo sapiens with 24 samples.

Results

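The genes described here are 10 components of the tight junction, 8 claudins (CLDN1, CLDN2, CLDN3, CLDN4, CLDN7, CLDN12, CLDN15 and CLDN23), occludin (OCLN) and the scaffold protein ZO-1 (TJP1), taken by gene name from 36337 named genes on the array. They were read by 14 probes, and all 10 were among the 20703 genes that could be tested. Expression was measured in HT29, an established human colon adenocarcinoma cell line, after 6 h in 6 groups of 4 arrays each, 24 arrays in all. NT cells were left untreated. C3/C2 cells received the short-chain fatty acids propionate (30 mM) and acetate (15 mM), and SN cells the culture supernatant of Propionibacterium freudenreichii, a bacterium that releases both acids, diluted in the medium to a final fraction of 0.5. TRAIL cells received the death ligand TRAIL (100 ng/ml) with 2 μg/ml of an anti-Flag antibody, and TRAIL+C3/C2 and TRAIL+SN cells received TRAIL with the acids or with the supernatant. All groups are 1 cell line in culture, so the measurements concern transcripts of these cells and not a barrier. By the authors' account, each group combines independent experiments run in duplicate, so its arrays are not all independent of each other. Nothing in the labels ties an array to a separate culture or shows which arrays are duplicates. Each SE and p-value counts every array as a separate unit. They measure the spread between arrays, which may be technical, and can overstate the evidence.

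Tight junctions close the space between neighbouring epithelial cells. Claudins form the strands, and they are of different kinds: CLDN2 and CLDN15 form pores that let small cations and water pass, whereas CLDN1, CLDN3 and CLDN4 are mostly found in tighter, sealing epithelia. Occludin belongs to another family of membrane proteins of the same strands, and ZO-1 ties the strands to the actin cytoskeleton.

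Each array was scaled to its own 75th percentile of intensity, and a level below is log2 of a probe's intensity over that percentile, so that levels are compared between groups for 1 probe and never between probes. A difference was called when it was at least 2-fold with an adjusted p under 0.05 (limma, Benjamini-Hochberg over all genes), and a gene is said to rise or fall when its adjusted p was under 0.05 at any fold. The arrays lay on 4 slides: NT replicate 1 and C3/C2 replicate 1 shared slide 1, their other replicates slide 2, all SN and TRAIL arrays slide 3 and all co-treatments slide 4. For SN, TRAIL and the co-treatments against NT, slide and treatment cannot be told apart. The 75th percentile was between 453.4 and 1009 intensity units, 49.84% to 57.84% of the probes were well above background, no spot was saturated, and arrays of 1 group correlated with an r of 0.9927 to 0.9977. All 11 colon epithelial markers were well above background on all 24 arrays. Of the markers of other cells, 4 of 6 fibroblast genes and the endothelial claudin CLDN5 were at background on every array. By contrast, 3 of 5 endothelial and 2 of 4 leukocyte markers were well above background on all 24 arrays. The fibroblast gene COL1A1 was at background in NT and at least 19.7-fold higher in C3/C2 and at least 36.1-fold higher in SN. The 6 fibroblast markers summed to between 0.0333 and 0.0446 times the 75th percentile in NT, 0.385 to 0.443 in C3/C2 and 0.648 to 0.81 in SN, and the 4 leukocyte markers to 1.52 to 2.01, 3.08 to 3.8 and 3.56 to 4.66. The 5 endothelial markers summed to 0.232 to 0.28 in NT, 0.385 to 0.476 in C3/C2 and 0.26 to 0.333 in SN. Their part in the results below was not tested.

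At the 75th percentile scale, CLDN2 fell and OCLN and CLDN23 rose with the acids and with the supernatant, and these 3 had the widest differences from NT at the probes that represent the genes. With median scaling the C3/C2 differences of TJP1 (-0.51) and CLDN4 (-0.46) were wider than that of CLDN23 (0.35). In C3/C2, 3 of the 10 genes rose and 3 fell, and OCLN alone was called; with median scaling CLDN2 (-1.03) was called in its place. Across all genes tested, 35.2% rose, 27.7% fell and 19.6% were called in this comparison. In SN, 6 rose and 2 fell, and CLDN2, CLDN23 and OCLN were called, against 35.1%, 34.2% and 24.0% of all genes. The shares called, 1 and 3 of 10, were near these backgrounds. The median difference over the 10 genes was 0.08 on the log2 scale in C3/C2 and 0.46 in SN, beside 0.08 and -0.02 over all genes tested.

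**Figure D1:**
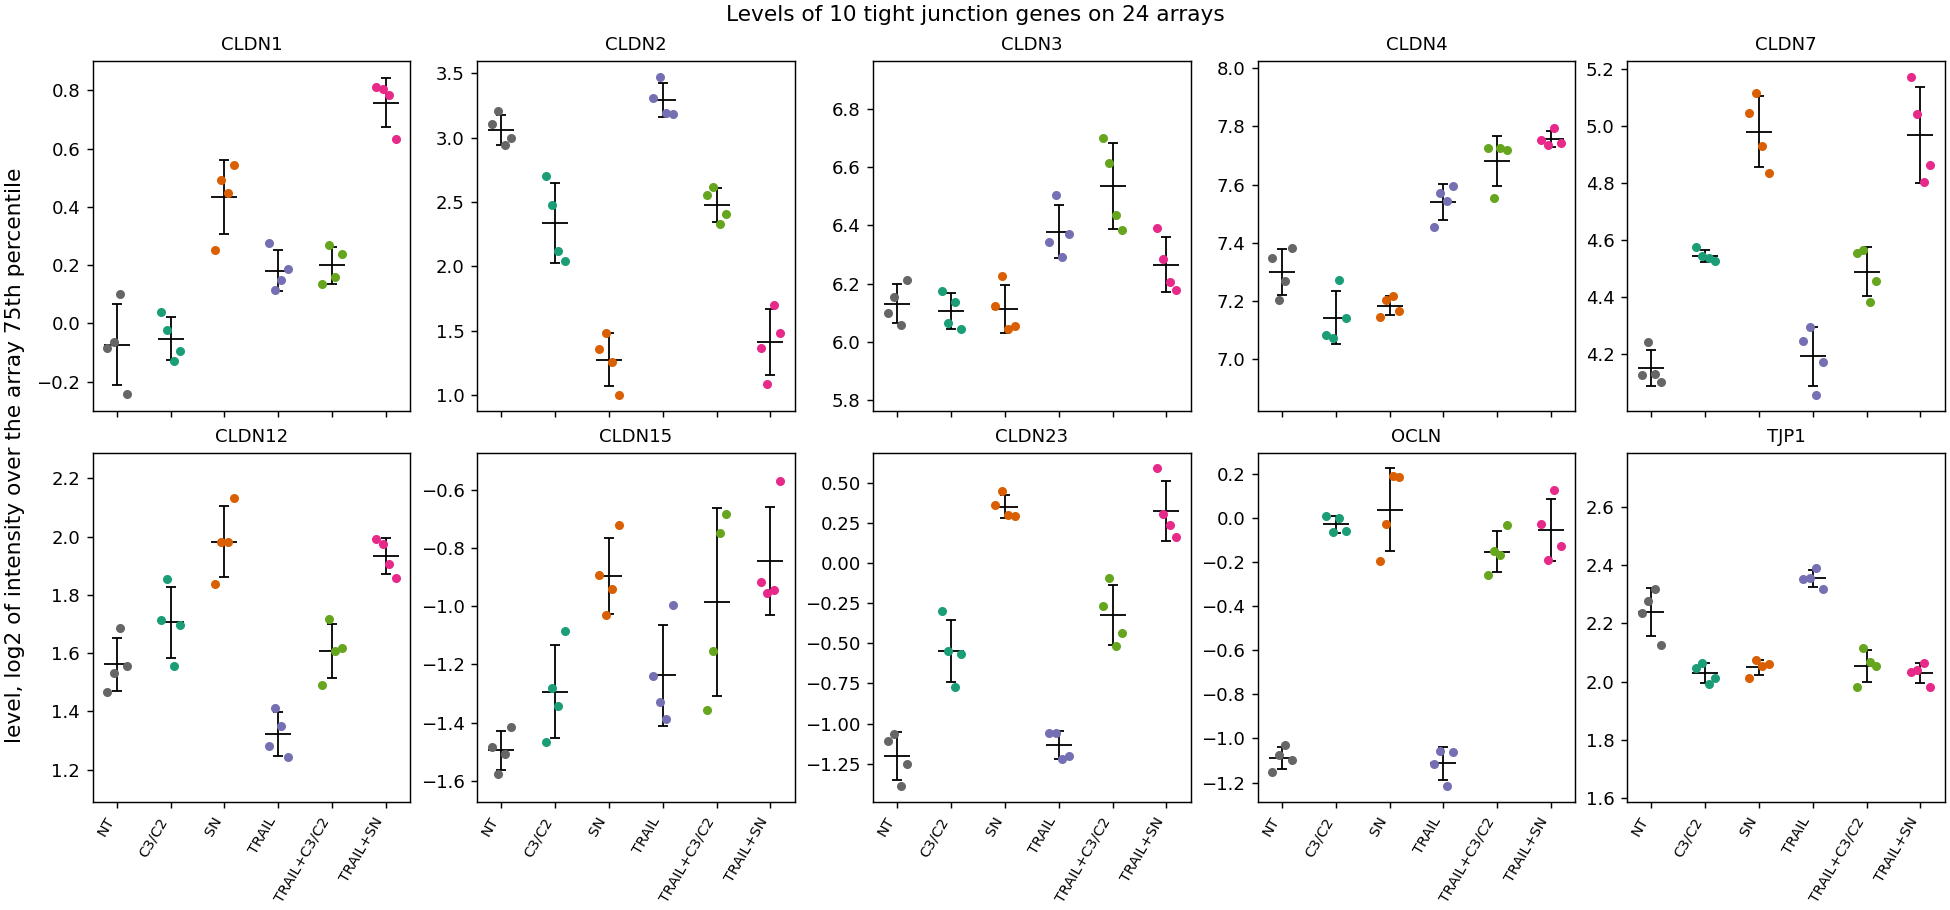
Level of each gene on every array (vertical axis, log2 of the probe's intensity over the array's 75th percentile, with a separate range in each panel) in the 6 groups (horizontal axis). Points are arrays, and bars give the mean and SD of 4 arrays. CLDN2 is lowest in SN and TRAIL+SN, with means of 1.28 and 1.41 against 3.06 in NT, while OCLN lies near 0 in the 4 groups with acids or supernatant and near -1.1 in NT and TRAIL.

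CLDN2 was the member with the widest range of group means, 2.02 on the log2 scale or 4.04-fold. Its probe lies on chromosome X at 106174032 to 106174091, plus strand, of hg19, the build that the files name. The first 30 of its 60 bases are given so that the measured transcript can be identified, and after them the 250 bases before the more upstream of the 2 starts that RefSeq lists, at chrX:106899914-106900163, plus strand, of GRCh38.p14, for comparison with the promoter of OCLN, which rose.
CLDN2 probe: agactatctgtaacagtgccaggcacacag
CLDN2 promoter: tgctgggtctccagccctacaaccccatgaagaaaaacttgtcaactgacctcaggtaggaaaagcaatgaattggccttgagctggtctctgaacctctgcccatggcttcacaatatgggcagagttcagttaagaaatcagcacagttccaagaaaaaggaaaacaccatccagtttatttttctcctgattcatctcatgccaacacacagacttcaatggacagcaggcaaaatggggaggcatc

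Untreated cells had CLDN2 levels of 3.11, 3.21, 2.94 and 3.00 on the 4 arrays. With C3/C2 the levels were 2.70, 2.48, 2.12 and 2.04, and with SN they were 1.36, 1.49, 1.25 and 1.00. No C3/C2 array reached the lowest NT array, and no SN array reached the lowest C3/C2 array. In whole cultures, fewer cells that express a gene and less RNA per cell cannot be told apart. The difference from NT was -0.73 ± 0.14 (SE, n = 4 arrays per group) on the log2 scale in C3/C2, 1.66-fold lower, with limma's adjusted p = 0.000118, and -1.79 ± 0.14 in SN, 3.45-fold lower, with limma's adjusted p = 3.31e-10. Within slide 2 the C3/C2 difference was -0.84, and between the single pair of arrays on slide 1 it was -0.40. TRAIL cells had levels of 3.31, 3.47, 3.19 and 3.19, which overlapped the NT range. With TRAIL+C3/C2 the levels were 2.55, 2.61, 2.33 and 2.41, and with TRAIL+SN 1.37, 1.08, 1.70 and 1.49. Both co-treatments were thus below NT on every array, with differences of -0.59 ± 0.14 (limma's adjusted p = 0.000907) and -1.65 ± 0.14 (limma's adjusted p = 1.02e-09). The mean levels ran from TRAIL through NT, TRAIL+C3/C2, C3/C2 and TRAIL+SN to SN, and the arrays overlapped between TRAIL and NT, between TRAIL+C3/C2 and C3/C2, and between TRAIL+SN and SN.

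CLDN15, the other pore-forming claudin of the set, moved the opposite way. It rose by 0.60 ± 0.13 on the log2 scale in SN, or 1.51-fold, with an adjusted p of 0.000349 (limma), and no SN array overlapped NT. In C3/C2 the difference was 0.20 ± 0.13, which did not pass, with a 95% interval from -0.07 to 0.47. Its spread was wide in TRAIL+C3/C2, where the 4 arrays lay between -1.36 and -0.68, against -1.58 to -1.41 in NT.

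Occludin had 2 probes on chromosome 5 of hg19, at 68849515 to 68849574, which represents the gene because its mean was higher, and at 68847386 to 68849429, a match that spans 2044 bases of genome for 60 bases of probe. Their first 30 bases follow, with the 250 bases before the upstream start at chr5:69492297-69492546, plus strand, of GRCh38.p14. Capitals mark a GC box (GGGCGG, written CCGCCC on the other strand) and an E-box of the kind bound by Snail proteins (CAGGTG, written CACCTG on the other strand).
OCLN first probe: tgtttgagaaattaagtatctgacatctct
OCLN second probe: tacaatagactgaagcaagtgaagggatct
OCLN promoter: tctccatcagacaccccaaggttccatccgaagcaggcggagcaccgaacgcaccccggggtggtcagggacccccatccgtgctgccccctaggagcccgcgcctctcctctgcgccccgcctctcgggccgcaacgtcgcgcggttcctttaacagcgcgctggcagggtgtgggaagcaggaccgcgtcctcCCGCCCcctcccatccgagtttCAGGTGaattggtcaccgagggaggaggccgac

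OCLN levels in NT were -1.15, -1.07, -1.03 and -1.10. In C3/C2 they lay between -0.066 and 0.0082, and in SN they were -0.20, -0.028, 0.19 and 0.19. Every C3/C2 and SN array was thus above every NT array. The rise was 1.06 ± 0.08 (SE, n = 4 arrays per group) on the log2 scale in C3/C2, or 2.08-fold, with limma's adjusted p = 1.87e-10, and 1.12 ± 0.08 in SN, or 2.18-fold, with limma's adjusted p = 5.75e-11. The C3/C2 difference was 1.16 on slide 1 and 1.03 within slide 2. It was close to the 2-fold limit, and with the arrays scaled to their medians (0.76), to spike-in probes (0.88) or after normexp background correction (0.95) it passed the test of the adjusted p but not that limit. In SN, median scaling gave 0.9959, also just under it.

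The second OCLN probe gave 1.01 ± 0.08 in C3/C2 and 1.07 ± 0.08 in SN. SN against C3/C2 did not pass the test for OCLN, with a difference of 0.07 and a 95% interval from -0.10 to 0.23, but with spike-in scaling SN was 0.31 higher (limma, adjusted p = 0.0433). TRAIL arrays lay between -1.22 and -1.06 and overlapped NT. In TRAIL+C3/C2 the level was 0.93 ± 0.08 above NT and in TRAIL+SN 1.03 ± 0.08 above, the second of these being called. Both depended on the scale. With spike-in scaling the TRAIL+C3/C2 value was 0.22, with an adjusted p of 0.107 (limma). The TRAIL+SN value passed the adjusted p but not the 2-fold limit with median (0.84), quantile (0.98) and spike-in scaling (0.51), after normexp (0.94) and without TRAIL+SN replicate 3 (0.97).

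CLDN23, a claudin of differentiated epithelia whose gene consists of a single exon, rose in 4 of the 5 treatments. Its levels were -1.11, -1.07, -1.39 and -1.25 in NT. With C3/C2 they were -0.30, -0.55, -0.78 and -0.57, and with SN 0.36, 0.45, 0.30 and 0.29. The 3 groups did not overlap. The rise was 0.65 ± 0.11 on the log2 scale in C3/C2, or 1.57-fold (limma, adjusted p = 1.79e-05), and 1.55 ± 0.11 in SN, or 2.94-fold (limma, adjusted p = 4.23e-11). On slide 1 the C3/C2 difference was 0.81, and within slide 2 it was 0.60. TRAIL arrays lay between -1.22 and -1.06 and overlapped NT, while TRAIL+C3/C2 arrays lay between -0.51 and -0.09 and TRAIL+SN arrays between 0.16 and 0.59. With spike-in scaling the TRAIL+C3/C2 difference was 0.16 and did not pass (limma, adjusted p = 0.362), and the TRAIL+SN difference was 0.9989, just under the 2-fold limit.

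**Figure D2:**
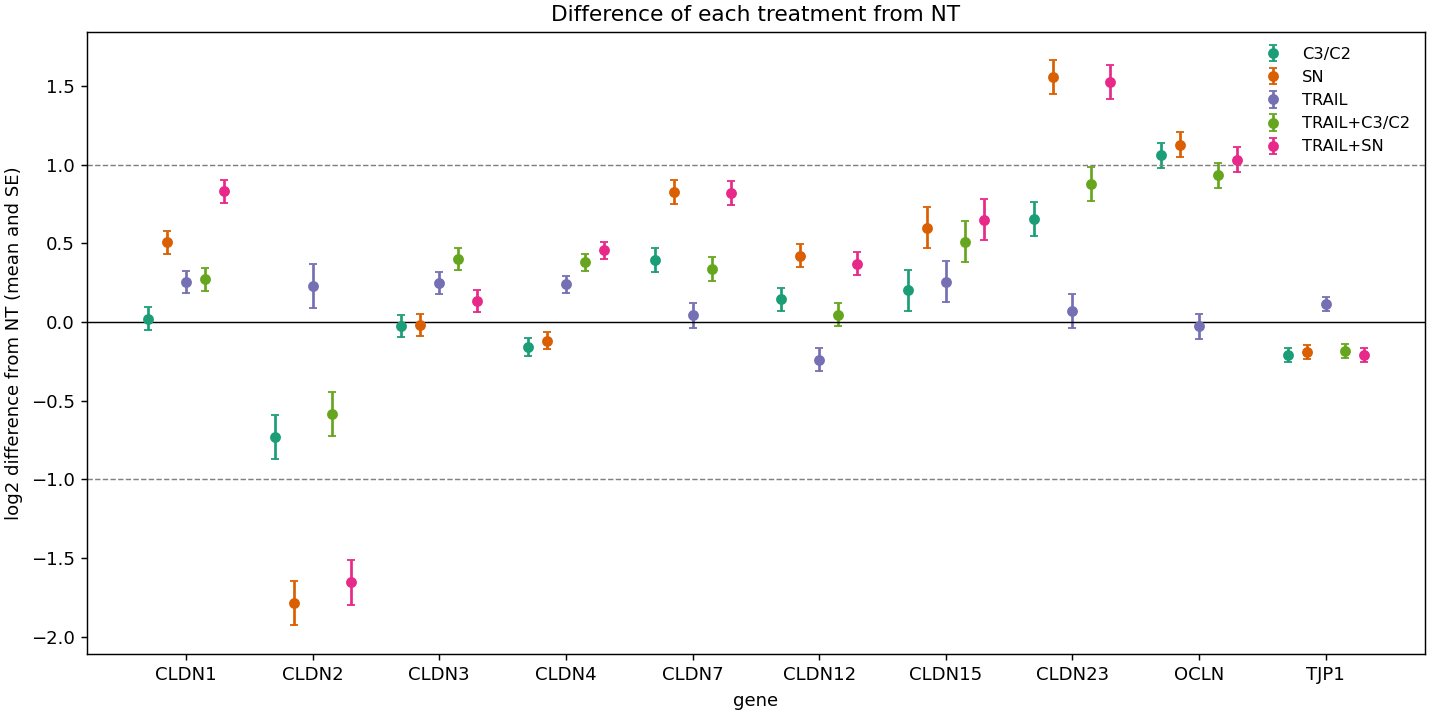
Difference of each treatment from NT for the 10 genes (vertical axis, log2 scale; points are differences of means of 4 arrays, bars the SE of the fit, dashed lines a 2-fold difference). CLDN2 falls furthest, to -1.79 in SN, and CLDN23 and OCLN lie above 1 in SN and TRAIL+SN. At the representing probes shown, TRAIL alone leaves all 10 genes between -0.24 and 0.26.

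Of the claudins of sealing epithelia, CLDN7 and CLDN1 rose with the supernatant, and CLDN3 and CLDN4 differed little from NT with either at the 75th percentile scale and the representing probes. CLDN7 rose by 0.39 ± 0.08 in C3/C2 (limma, adjusted p = 0.000127) and by 0.83 ± 0.08 in SN (limma, adjusted p = 4.27e-09), but the C3/C2 value was 0.09 with median scaling and 0.21 with spike-in scaling, neither of which passed. Its 4 arrays lay between 4.10 and 4.24 in NT, between 4.53 and 4.58 in C3/C2 and between 4.83 and 5.11 in SN, so these groups did not overlap. A second CLDN7 probe, nearer to the end of the transcript, moved more in SN, by 1.23 ± 0.09 or 2.34-fold, and less in C3/C2, by 0.26 ± 0.09. When a gene's probes were averaged, CLDN7 was called in SN and in TRAIL+SN.

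CLDN1 did not pass in C3/C2 (0.02 ± 0.07), but rose by 0.51 ± 0.07 in SN and by 0.83 ± 0.07 in TRAIL+SN, each with no overlap of arrays. With spike-in scaling the TRAIL+SN difference was 0.305 and did not pass (limma, adjusted p = 0.0527). With median scaling, the C3/C2 difference was -0.28 and passed the test (limma, adjusted p = 0.0106). CLDN3 was within 0.03 of NT in both C3/C2 and SN, but at -0.33 in C3/C2 with median scaling, which passed (limma, adjusted p = 0.00113). For CLDN4 the differences at the same scale were -0.16 ± 0.05 in C3/C2, which passed with limma's adjusted p = 0.0161, and -0.12 ± 0.05 in SN, which did not (adjusted p = 0.0634 by limma, and 0.0403 with the replicate number as a block). The C3/C2 fall of CLDN4 did not pass without NT replicate 4, C3/C2 replicate 1 or C3/C2 replicate 2, with limma's adjusted p = 0.0587, 0.0516 and 0.0538, nor with the slide as a block, with limma's adjusted p = 0.0999. With median scaling the C3/C2 difference was -0.46. For SN it passed without NT replicate 2 (limma, adjusted p = 0.0286), with median scaling (-0.25) and with quantile normalization (-0.12).

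CLDN4 had a second, dim probe, designed on another transcript record, upstream of the first at 73244259 to 73244318 of chromosome 7. It was well above background on all 8 NT and C3/C2 arrays and on none of the other 16, a split that also separates slides 1 and 2 from slides 3 and 4. NT was at least 1.4-fold higher than SN at this probe, and averaging both probes turned the sign of several CLDN4 differences. The first 30 bases of both are given because they were designed on different transcript records of the gene.
CLDN4 first probe: ggggtttttcctcttccttctttgtggttt
CLDN4 dim probe: acttttctgggggacctgttcacgatgcct

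CLDN12, a claudin without the usual binding motif for scaffold proteins at its tail, rose by 0.42 ± 0.07 in SN (limma, adjusted p = 2.34e-05) and differed from NT in C3/C2 by 0.14 ± 0.07, which did not pass with all arrays but did without NT replicate 3 or C3/C2 replicate 3 (limma, adjusted p = 0.0399 and 0.0282). Its 2 probes disagreed. The dimmer one gave 0.62 ± 0.13 in C3/C2 and 1.13 ± 0.13 in SN, and in TRAIL it was 0.30 ± 0.13 above NT while the representing probe was 0.24 ± 0.07 below it.

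**Figure D3:**
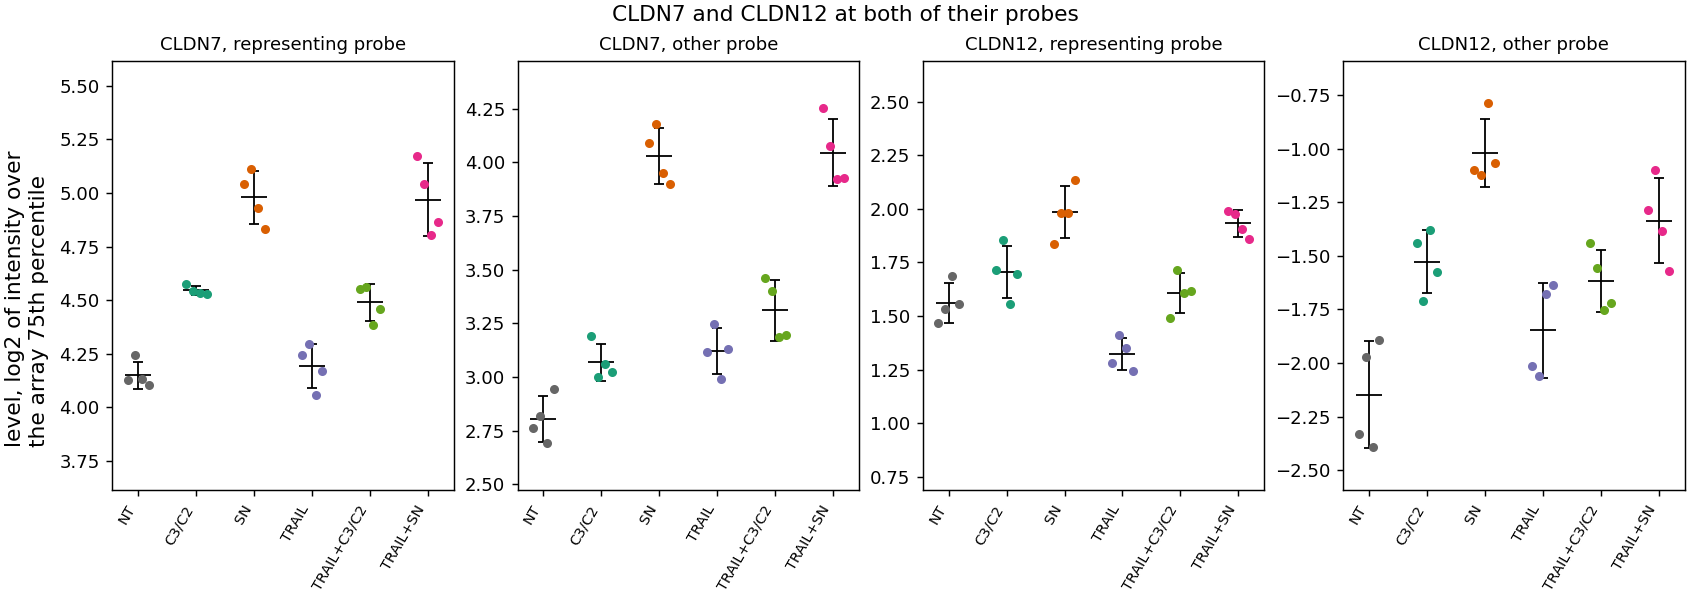
CLDN7 and CLDN12 at both of their probes (vertical axis, log2 of intensity over the array's 75th percentile, spanning 2 units in each panel; points are arrays, bars the mean and SD of 4 arrays). In SN the second CLDN7 probe is 1.23 above NT and the first 0.83, and the second CLDN12 probe is 1.13 above NT and the first 0.42.

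TJP1, the scaffold protein, was lower in the 4 groups with acids or supernatant, by an amount that depended on the scale. At the 75th percentile the difference was -0.21 ± 0.04 in C3/C2, -0.19 ± 0.04 in SN, -0.19 ± 0.04 in TRAIL+C3/C2 and -0.21 ± 0.04 in TRAIL+SN, 1.14-fold to 1.16-fold lower, each passing the test with no overlap with NT. Within slide 2 alone the C3/C2 difference was -0.22 with limma's adjusted p = 0.064, and the SN difference did not pass with spike-in scaling, at -0.12. In the order given, the 4 differences were -0.51, -0.32, -0.53 and -0.40 with median scaling, and the others were -0.39, -0.90 and -0.74 with spike-in scaling.

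TRAIL alone moved these genes little at the representing probes. CLDN1, CLDN3 and CLDN4 were 0.25 ± 0.07, 0.25 ± 0.07 and 0.24 ± 0.05 above NT and the CLDN12 difference was -0.24 ± 0.07; these 4 of the 10 passed, but with spike-in scaling the first 3 were at -0.02, -0.03 and -0.03, with quantile normalization CLDN3 and CLDN4 were at 0.07 and -0.03, and with median scaling CLDN12 was at -0.14 and did not pass. CLDN7 did not pass at its representing probe (0.04 ± 0.08), but its second probe was 0.32 ± 0.09 above NT (limma over all probes, adjusted p = 0.0092). None of the 10 was called, against 2.93% of all genes. By the adjusted p, 20.3% of all genes were higher and 13.1% lower. CLDN15 (0.26 ± 0.13) and TJP1 (0.11 ± 0.04) did not pass, but did with the replicate number as a block or with median scaling, and TJP1 also without NT replicate 3. Their p-values with the block were 0.0289 and 0.0229 by limma's adjusted p, against 0.138 and 0.0539 without it. Without NT replicate 3 the CLDN12 difference was -0.20, with limma's adjusted p = 0.0567.

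With TRAIL+C3/C2, 7 of the 10 genes were higher than NT and 2 lower (CLDN2 and TJP1), and none was called except, with spike-in scaling, CLDN2 (-1.30), against 39.9% higher, 29.5% lower and 24.2% called among all genes. This direction rested on the scale: with spike-in scaling 7 were lower and none higher, and with median scaling 2 were higher and 3 lower. With TRAIL+SN, 7 were higher and 2 lower, and CLDN2, CLDN23 and OCLN were called, against 37.4%, 32.7% and 26.2%. With spike-in scaling 2 were higher and 3 lower, and with median scaling 6 were higher and 2 lower. The arrays of both co-treatments had the lowest 75th percentiles, 453.4 to 546.1 intensity units.

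The scales differed as follows. Relative to the 75th percentile, scaling to the array median moved all genes by the same amount, -0.300 in C3/C2, -0.129 in SN, 0.1 in TRAIL, -0.347 in TRAIL+C3/C2 and -0.194 in TRAIL+SN, and scaling to the spike-in probes moved them by -0.180, 0.069, -0.273, -0.713 and -0.526. Among all genes past the adjusted p, the share higher than NT was 56% in C3/C2 at the 75th percentile, 33.4% with the median and 41.3% with spike-in probes. These shares were 60.8%, 78.3% and 5.49% for TRAIL and 50.7%, 41.8% and 56% for SN. In TRAIL+C3/C2 they were 57.4%, 34.7% and 18.8%, and 53.3%, 41.6% and 24.5% in TRAIL+SN. In SN, the rise of CLDN1, CLDN7, CLDN12, CLDN15, CLDN23 and OCLN and the fall of CLDN2 passed under all 4 other scalings and background corrections tried.

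The supernatant holds more than the 2 acids, which by the authors' account C3/C2 held in matching amounts. In SN against C3/C2, the rest of the supernatant and the slide cannot be told apart. The CLDN2 difference was -1.06 ± 0.14 on the log2 scale, 2.08-fold lower in SN (limma, adjusted p = 3.56e-06), and at this scale CLDN2 was the only member called, against 5.69% of all genes. By the adjusted p, 5 of the 10 genes were higher in SN (CLDN1, CLDN7, CLDN12, CLDN15 and CLDN23) and 1 was lower, against 47.4% of all genes in either direction. CLDN23 was 0.90 ± 0.11 higher, CLDN1 0.49 ± 0.07 and CLDN7 0.43 ± 0.08. CLDN3, CLDN4, OCLN and TJP1 did not pass, and their 95% intervals lay between -0.14 and 0.23, although CLDN4 and TJP1 were higher in SN with median scaling (0.21 and 0.19). CLDN15 did not pass without C3/C2 replicate 1 or without SN replicate 4 (limma, adjusted p = 0.0555 and 0.0558). The groups lay on different slides. CLDN2 was close to the 2-fold limit: the difference was -0.94 without C3/C2 replicate 1, -0.97 without SN replicate 4, -0.89 with median scaling and -0.81 with spike-in scaling, each past the adjusted p and none called. With median and spike-in scaling CLDN23 was called in its place, at 1.07 and 1.15.

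The same comparison in the presence of TRAIL was made within slide 4. The difference of TRAIL+SN from TRAIL+C3/C2 in CLDN2 was -1.07 ± 0.14, 2.10-fold lower (limma, adjusted p = 5.08e-06), again the only call, against 3.53% of all genes. Without TRAIL+SN replicate 2 it was -0.96, with median scaling -0.91 and with spike-in scaling -0.88, each past the adjusted p and under the 2-fold limit. By the adjusted p, CLDN1 (0.56 ± 0.07), CLDN7 (0.48 ± 0.08), CLDN12 (0.32 ± 0.07) and CLDN23 (0.65 ± 0.11) were higher in TRAIL+SN and CLDN2 and CLDN3 (-0.27 ± 0.07) lower, 6 of 10 against 37.6% of all genes. CLDN3 did not pass with median (-0.12), quantile (-0.19) or spike-in scaling (-0.08) or with only the groups compared in the fit (limma, adjusted p = 0.0514), whereas CLDN4 passed with median (0.23), quantile (0.18) and spike-in scaling (0.26). The second OCLN probe was 0.44 ± 0.08 higher in TRAIL+SN (limma over all probes, adjusted p = 0.000191) where the first was not (0.10 ± 0.08).

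SN and TRAIL were hybridised on the same slide. At the 75th percentile scale all 10 genes passed the adjusted p, as did 66.4% of all genes, with 6 higher in SN and 4 lower (CLDN2, CLDN3, CLDN4 and TJP1), but CLDN3 and TJP1 turned to 0.08 and 0.04 with spike-in scaling. CLDN1 (0.02) and CLDN15 (0.11) did not pass with median scaling, CLDN3 (-0.10), CLDN4 (-0.10) and CLDN15 (0.28) not with quantile normalization, and CLDN4 not with spike-in scaling (-0.02). CLDN15 did not pass without SN replicate 4, TRAIL replicate 2 or TRAIL replicate 3 either. The CLDN2 difference was -2.02 ± 0.14, 4.04-fold lower, OCLN was 1.15 ± 0.08 higher and CLDN23 1.49 ± 0.11 higher, and these 3 were called, against 21.1% of all genes.

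If TRAIL and a second treatment act independently, the co-treatment differs from NT by the sum of both differences on the log2 scale. At the 75th percentile scale and the representing probes, 2.88% of all genes departed from that sum with C3/C2 and 23.2% with SN, in either direction. CLDN4 was the only member to do so, by 0.30 ± 0.08 when TRAIL was joined with C3/C2 (limma, adjusted p = 0.0404) and by 0.33 ± 0.08 when joined with SN (limma, adjusted p = 0.00392). Its levels were 7.35, 7.21, 7.27 and 7.38 in NT, 7.73, 7.55, 7.73 and 7.72 in TRAIL+C3/C2 and 7.75, 7.74, 7.80 and 7.74 in TRAIL+SN. Neither departure passed with median scaling (0.15 and 0.17) or spike-in scaling (0.04 and 0.01). The first did not pass with quantile normalization (0.22) or after normexp (0.29) either, with limma's adjusted p = 0.0863 and 0.0682. Without the filter on dim probes its adjusted p was 0.0861 (limma). The second passed with quantile normalization (0.36) and after normexp (0.30). TJP1 departed for SN with median scaling (-0.30) and spike-in scaling (-0.46) and did not pass otherwise. The first CLDN4 departure did not pass without any 1 of 11 of the 16 arrays involved. For CLDN2 the departures were -0.09 ± 0.20 and -0.10 ± 0.20, and for OCLN -0.10 ± 0.11 and -0.07 ± 0.11. The dimmer CLDN12 probe departed for SN by -0.61 ± 0.19 (limma over all probes, adjusted p = 0.0221). The dim CLDN4 probe passed for neither. The groups lay on different slides, and differences between slides do not cancel in these sums.

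Between neighbouring groups in the order of mean levels, an exact two-sided permutation test of 4 against 4 arrays cannot give a p below 0.0286. Of the 50 neighbouring pairs over the 10 genes, 14 had that p and none passed after Benjamini-Hochberg adjustment. No pair could pass unless many more of the 50 had that p, so the adjusted test cannot decide on any single pair. For OCLN the only gap with that p lay between TRAIL+C3/C2 and NT. For CLDN23 there were 2, between TRAIL+SN and TRAIL+C3/C2 and between C3/C2 and TRAIL. For CLDN3 and CLDN15 there was none.

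Across the 24 arrays, CLDN7 and CLDN23 varied together (Pearson r = 0.97), and CLDN2 ran against both (r = -0.92 with CLDN7 and -0.91 with CLDN23). OCLN ran with CLDN23 (r = 0.84) and against TJP1 (r = -0.88). These values describe arrays that share 6 treatments and 4 slides and are given with no test. Similar genes were sought among 14843 named genes that were tested and had a value on all 24 arrays, dim ones included. Those most like CLDN2 were C7orf29 (r = 0.98), KIF20A (r = 0.98), C20orf134 (r = 0.97), CCNB2 (r = 0.97) and KIF22 (r = 0.97). Those most like CLDN23 were FUT1, TMEM45B, KRT80, SLC2A1 and PPL, all with r = 0.98.

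Promoter letters were searched for 9 of the 10 members; that of CLDN23 was not analysed here. For CLDN7 RefSeq lists 2 starts, and the 250 bases before the downstream one hold 4 matches to the E-box, counting both strands, where 0.12% of 34943 promoter windows of that length hold 4 or more and 17.5% hold any. It is the member window with the most E-box matches, so its share is no test of enrichment. The last 30 bases before that start, at chr17:7262479-7262508, minus strand, of GRCh38.p14, carry 2 of the 4, in capitals.
CLDN7 promoter end: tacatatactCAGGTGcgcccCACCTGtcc

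OCLN has 1 such match in each of its 2 windows, as printed above for the upstream one, and 1 of the 4 TJP1 windows has 1. The upstream window of CLDN7 and the windows of CLDN1, CLDN2, CLDN3, CLDN4, CLDN12 and CLDN15 have none. The GC box was found before CLDN1, CLDN3, CLDN4, CLDN7, CLDN15, OCLN and TJP1 and in 42.5% of all windows. TTTATG, an element bound by the intestinal factor CDX2, was found in none of the windows of the 9 members searched and in 9.66% of all windows. Matches describe letters only.

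Genes of other junction lists are given by their counts past the adjusted p, to be read against 35.2% higher and 27.7% lower among all genes in C3/C2 and 35.1% and 34.2% in SN, with values against NT for those called in most comparisons. With these backgrounds, most genes pass in either direction. Of 15 further claudins, 5 were tested, of which 4 rose and 1 fell in C3/C2 and 3 rose in SN. CLDN11, a claudin of myelin and testis, rose by 2.12 ± 0.34 in C3/C2 and 1.87 ± 0.34 in SN. CLDN9 rose by 0.83 ± 0.14 and 1.76 ± 0.14. CLDN6, mainly an embryonic claudin, was on no NT array well above background. It was at least 2.26-fold higher in C3/C2, 2.03-fold in SN and 8.33-fold in TRAIL+C3/C2. It is counted among those that rose, but was tested only because treated groups had it above background, so its direction follows from that filter. CLDN18, the 1 that fell in C3/C2, was on 4 NT arrays and on none of either co-treatment. NT was the only group with all its arrays above background, so the fall of CLDN18 follows from the filter in the same way.

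Of 24 scaffold and plaque genes, 21 were tested, of which 9 rose and 6 fell in C3/C2, and 13 rose and 5 fell in SN. Their median difference was 0.13 in C3/C2 and 0.40 in SN, beside 0.08 and -0.02 over all genes. CGNL1 (paracingulin), which recruits regulators of small GTPases to junctions, rose by 2.16 ± 0.12 and 2.11 ± 0.12. Cingulin (CGN) rose by 0.95 ± 0.09 and 0.78 ± 0.09, and the polarity kinase PRKCZ by 0.83 ± 0.06 and 1.10 ± 0.06.

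Of 10 other membrane proteins of the junction, 7 were tested, with 5 up and 2 down in C3/C2 and 4 up and 3 down in SN. The relatives of occludin went the other way from OCLN: MARVELD3 fell by 0.77 ± 0.07 in C3/C2 and 1.39 ± 0.07 in SN, and MARVELD2 (tricellulin) by 0.87 ± 0.06 and 0.29 ± 0.06. The adhesion molecule F11R (JAM-A) rose by 0.68 ± 0.05 and 1.09 ± 0.05, and ESAM, an adhesion molecule known from endothelium, by 1.39 ± 0.11 and 1.95 ± 0.11.

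All 15 adherens junction and desmosome genes were tested; 9 rose and 2 fell in C3/C2, and 8 rose and 3 fell in SN. CDH1 (E-cadherin) rose by 0.93 ± 0.05 and 1.07 ± 0.05, and PVRL4 (nectin-4) by 0.36 ± 0.09 and 0.90 ± 0.09. Of 7 genes of myosin light chain contraction, 1 rose and 3 fell in C3/C2 and 4 rose in SN. MYL9, a regulatory light chain, passed the background test on 1 of 4 NT arrays and on all 4 arrays of C3/C2 and of SN, where it was 1.51 ± 0.29 and 1.45 ± 0.29 higher. It is the 1 that rose in C3/C2. It too was tested only because treated groups had it above background, so its direction follows from that filter.

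Of 18 transcription factors known to act on junction genes, 14 were tested, with 6 up and 5 down in both C3/C2 and SN, shares near those of all genes. SNAI1 (Snail), known as a repressor that binds the E-box printed above, rose by 3.74 ± 0.14 in C3/C2 and 4.72 ± 0.14 in SN. The members with an E-box match differed in direction. In C3/C2 and SN, the differences were 1.06 and 1.12 for OCLN, 0.39 and 0.83 for CLDN7, and -0.21 and -0.19 for TJP1. CLDN7 has its matches only before its downstream start, and TJP1 before only some of its starts. CDH1 rose as well, but its promoter was not among those searched. Whether Snail acts on any of these genes was not tested. KLF4 rose by 1.86 ± 0.11 in C3/C2 and 2.35 ± 0.11 in SN, and GRHL1 by 1.67 ± 0.09 and 1.97 ± 0.09.

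**Figure D4:**
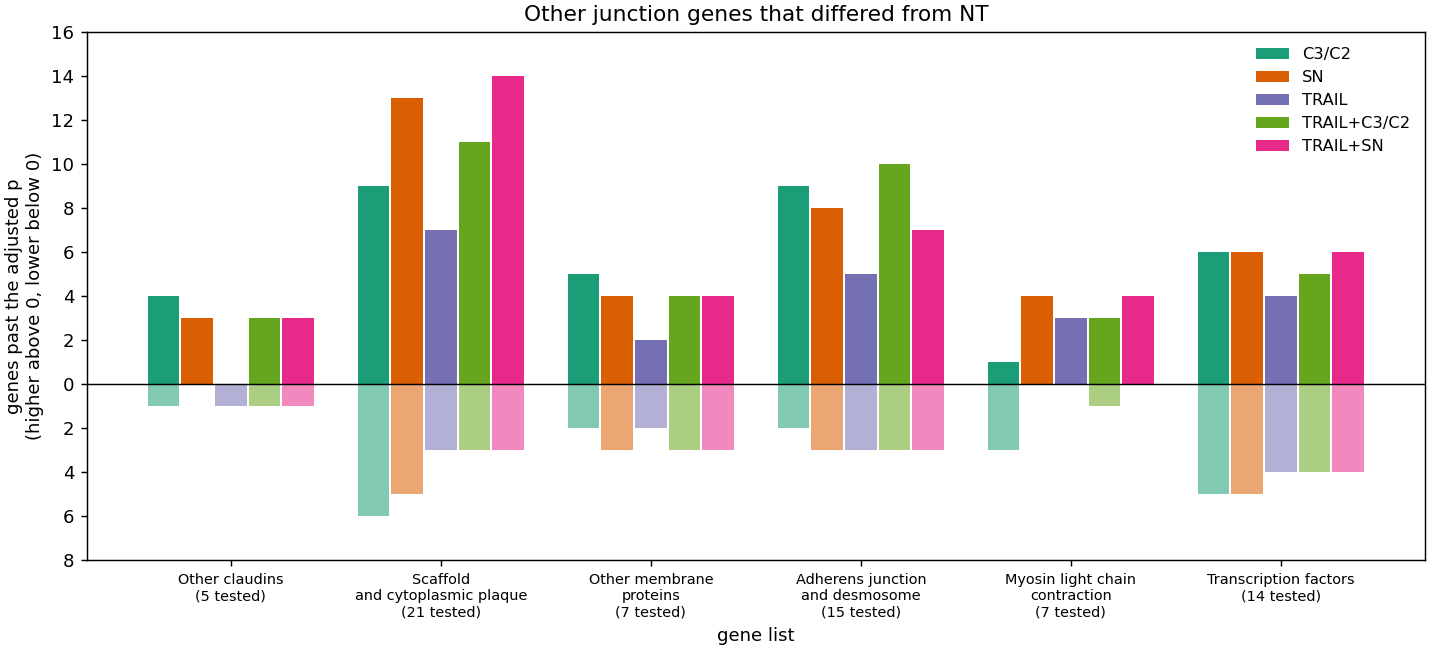
Number of genes of each list that passed the adjusted p against NT (vertical axis; higher above 0, lower below 0 in paler shade) in the 5 treatments (colours), with the number tested under each list. In SN, 13 of 21 scaffold genes are higher and 5 lower, and TRAIL alone has 7 higher and 3 lower.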

How the data were processed

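RNA of each sample was labelled with Cy3 and hybridised by the authors to 1-colour Agilent human 8×60K arrays, which were scanned and read with Feature Extraction 10.7.3.1 (submitters' processing notes). The deposited intensity used here is the processed, background-subtracted signal per spot. The deposited table of all 24 arrays holds the same intensity over each array's median and was not used for tests. Control spots and spots marked as outliers (190 to 315 an array) were left out, and log2 intensity was scaled to each array's 75th percentile over the other spots. A probe was kept if every array of some group had it well above background (27957 of 50599), and the probe with the highest mean stood for its gene. Differences came from 1 limma fit (limma 3.58.1 in R 4.3.3) of 6 group means over 24 arrays with 18 residual degrees of freedom, tested on simulated data first. These degrees of freedom count every array as a separate unit, although each group holds duplicates. The number of arrays, and the smaller number of independent experiments, limit the precision.

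Replicates are numbered 1 to 4 in each group by the labels. The fit used no pairing, and the replicate number entered only as a block in an alternative. Deviations of same-numbered arrays from their group means correlated with r = 0.112 to 0.475 in 7 of 8 comparisons. Arrays with different numbers were not compared in this way, so these values cannot show whether the numbers pair the arrays. In TRAIL+SN against NT the lowest r was 0.0899. Which numbers belong to the same experiment is not given in the sources used here.

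The members and lists were chosen with earlier results of these data known. Named are all 10 members and, per list, at most 4 genes called in the most comparisons with NT. Some genes that this rule names are not reported here. Accessions of 13 of 14 probes matched RefSeq, and sequences printed are from the scanner files (probes) or RefSeq, GRCh38.p14. For a gene at background in a whole group, a fold is a bound, against the higher of its own level and the lowest level well above background on each array. Alternatives were other scalings, background correction, filters, blocks and left-out arrays. LYZ, a leukocyte marker, was not analysed here.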

Additional observations from a re-analysis of the deposited data

Results flagged for a closer look

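In a group of 4 arrays, an array was singled out when it lay apart from the other 3 by more than the 95% critical share of the group's range (Dixon's ratio). This was found in 3 of 60 groups of the 10 genes, as many as the 1 in 20 that chance gives. CLDN1 was at 0.6321 on TRAIL+SN replicate 4, against 0.7847 to 0.8104 on the others. CLDN4 was at 7.554 on TRAIL+C3/C2 replicate 2, against 7.718 to 7.727. CLDN15 was at -0.5693 on TRAIL+SN replicate 4, against -0.9542 to -0.9165.

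CLDN4 is also listed because its difference between co-treatment and NT departed from the sum of the single treatments, by 0.2983 on the log2 scale for the acids and 0.3337 for the supernatant (limma, adjusted p = 0.0404 and 0.00392). Neither departure passed with median or spike-in scaling, and that for the acids also not with quantile normalization or after normexp.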

How the results depend on the processing

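Counts of members called in the 10 comparisons were within 1.5 times the reported count under most alternatives. Without a minimum fold they were 6 in C3/C2, 8 in SN, 4 in TRAIL, 9 in TRAIL+C3/C2, 9 in TRAIL+SN, 6 in SN against C3/C2, 6 in TRAIL+SN against TRAIL+C3/C2, 10 in SN against TRAIL and 1 in each departure from the sum. With array-median scaling, TRAIL+SN against TRAIL+C3/C2 had 0. With spike-in scaling the counts were 0 in C3/C2, 1 in TRAIL+C3/C2, 1 in TRAIL+SN, 0 in TRAIL+SN against TRAIL+C3/C2 and 5 in SN against TRAIL. With normexp, C3/C2 had 0. Averaging a gene's probes added CLDN7 to the calls in SN and in TRAIL+SN. Leaving out both arrays of slide 1, an alternative chosen after seeing the data, gave 0 in SN against C3/C2. Leaving out 1 array at a time gave 0 to 1 in SN against C3/C2 and 0 to 1 in TRAIL+SN against TRAIL+C3/C2. With the replicate number as a block, the counts were 1 in C3/C2, 3 in SN and 3 in TRAIL+SN, as without it; the 3 member values it changed are given above, and it changed no other call.

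Directions turned under these alternatives. Array-median scaling gave CLDN1 -0.28 in C3/C2 and -0.075 in TRAIL+C3/C2, CLDN7 -0.0089 and CLDN12 -0.30 in TRAIL+C3/C2. Quantile normalization gave CLDN4 -0.027 in TRAIL. Spike-in scaling gave, in TRAIL, CLDN1 -0.018, CLDN3 -0.026 and CLDN4 -0.033; in TRAIL+C3/C2, CLDN1 -0.44, CLDN3 -0.31, CLDN4 -0.33, CLDN7 -0.38, CLDN12 -0.67 and CLDN15 -0.20; in TRAIL+SN, CLDN3 -0.39, CLDN4 -0.070 and CLDN12 -0.15; in SN against TRAIL, CLDN3 0.076 and TJP1 0.037. Averaging a gene's probes gave CLDN4 0.005 in C3/C2, -0.33 in TRAIL, -0.41 in TRAIL+SN, -0.60 in SN against C3/C2 and -0.49 in TRAIL+SN against TRAIL+C3/C2, and CLDN12 0.030 in TRAIL. The cause was not tested, beyond the dim second CLDN4 probe. Of 960 member values with 1 array left out, 936 kept direction and side of the threshold.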
